A study of Mus musculus with 63 samples.

Results

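The 34 genes described here carry glucose into the cell, break it down to pyruvate and move lactate and pyruvate onward: 2 glucose transporters (Slc2a1, Slc2a3), 24 genes from hexokinase to the lactate dehydrogenases and monocarboxylate transporters, 6 genes that gate pyruvate entry into the citric acid cycle (Pdk1 to Pdk4, Pdha1, Pdp1), and Hif1a with Egln3 of the hypoxia pathway. They were taken by gene symbol from a fixed list. All 34 were present among the 47517 symbols of the 22 RNA-seq count tables and all 34 passed the count filter of every fit.

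The study concerned the transcription factor YY1 in mouse extended pluripotent stem (EPS) cells, which can contribute to embryonic and extraembryonic tissue, and in mouse embryonic stem (ES) cells. All cells were of strain C57BL/6. EPS cells were kept in LCDM medium and ES cells in 2i medium, so medium and cell state cannot be told apart. Both grew on inactivated mouse embryonic fibroblasts or on Matrigel, and which of these held for a given library was not stated. There were 10 groups: untransduced ES and EPS cells (3 libraries each), EPS cells with a control shRNA (EPS shCtrl) or a Yy1 shRNA (EPS shYy1), ES cells with a control construct (ES oeCtrl) or Yy1 overexpression (ES oeYy1), and these last 4 lines after 6 days in a medium named F4H (2 libraries per group). Of the 63 samples of the series, these 22 were used. Whether replicates came from separate cultures was not stated, so p-values measure the spread between these libraries, which may be technical.

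In glycolysis, hexokinase traps glucose as its phosphate, phosphofructokinase sets the main committed step under the control of the bifunctional PFKFB enzymes, and lactate dehydrogenase reduces pyruvate to lactate, which leaves through monocarboxylate transporters. Pyruvate dehydrogenase kinases (PDK) switch off the pyruvate dehydrogenase complex and so keep pyruvate out of the mitochondrial cycle, while its phosphatase Pdp1 switches it on. Many of these genes are known targets of hypoxia-inducible factor (HIF), and pluripotent cells are known for high glycolytic flux that differs between pluripotent states.

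Levels are CPM, the counts of a gene scaled to the same total of gene counts in every library. They are not corrected for gene length, so only the same gene is compared between groups. Changes are log2 fold changes ± standard error from edgeR's quasi-likelihood test with TMM scaling. A gene is said to have risen, fallen or differed where its Benjamini-Hochberg adjusted p over all genes tested was under 0.05, and is then termed called. Depth was 13672061 to 20782348 gene counts per library, so that 3 counts correspond to 0.144 to 0.219 CPM. No member was at 0 in any library. Where groups are said to overlap or not, the share of all genes doing so was not counted.

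Some facts of the libraries touch the results. Yy1 itself was at 70.5 and 70.5 CPM in EPS shYy1 against 134 and 134 in EPS shCtrl (log2 fold change -0.99 ± 0.11, adjusted p = 4.43e-06), and at 934 and 941 CPM in ES oeYy1 against 120 and 124 in ES oeCtrl (2.94 ± 0.11, adjusted p = 4.91e-11). At day 6 the libraries labelled shYy1 held 114 and 110 CPM against 129 and 123 in the controls, with no detected difference (-0.03 ± 0.05, adjusted p = 0.567), while ES oeYy1 remained at 331 and 324 against 120 and 126 CPM (1.38 ± 0.05, adjusted p = 9.22e-33). The summed CPM of Y-linked genes was 3.06 to 3.40 in EPS shCtrl and 155 to 158 in EPS shYy1, and 111 to 131 in ES oeCtrl and 26.9 to 27.7 in ES oeYy1, so the libraries of each Yy1 comparison also differed in sex-linked genes, whose part in the results was not tested. At day 6 this sum was 16.4 to 17.4 in EPS shCtrl and 169 to 176 in the libraries labelled shYy1. In ES oeCtrl it was then 101 to 105, and in ES oeYy1 66.0 to 71.8. Within EPS shCtrl and ES oeYy1 the sum also differed between stages, and its part there was not tested. The 2 libraries of EPS shCtrl stood apart from each other, with Ldha at 478 and 1084 CPM, Hk1 at 102 and 54.0 CPM and Pdk1 at 242 and 365 CPM. So did replicate 3 of ES and of EPS from the other replicates of its group. Its chi-square per gene against replicates 1 and 2 was 24.0 and 34.3 in ES and 25.6 and 28.9 in EPS. Between the EPS shCtrl libraries it was 20.2. Pluripotent cell markers (12 of 12 present) summed to 5526 to 8651 CPM in the undifferentiated groups and 377 to 733 CPM at day 6.

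The promoters of 4 genes that recur in the results are shown first: Pdk1, the member with the widest gap between EPS and ES cells, Eno1, which differed with Yy1 in opposite directions in the depleted and overexpressing lines, and Slc2a1 and Pfkfb3, which rose in every line at day 6. Each runs 5′ to 3′ on the gene's strand from 250 bases before to 50 after a RefSeq transcription start (GRCm38.p6). Capitals mark the hypoxia response core, ACGTG or GCGTG on either strand (CACGT or CACGC when read on the other strand). RefSeq lists more than 1 start for Pdk1, Eno1 and Pfkfb3, and the window shown is that with the lowest coordinate. The second Pdk1 window, chr2:71874654-71874953, held 0 cores. For Pfkfb3, on the minus strand, the other window, chr2:11553880-11554179, lies upstream of the one shown and held 1 core. The other Eno1 windows held 2 each.
Pdk1, chr2:71872974-71873273, plus strand: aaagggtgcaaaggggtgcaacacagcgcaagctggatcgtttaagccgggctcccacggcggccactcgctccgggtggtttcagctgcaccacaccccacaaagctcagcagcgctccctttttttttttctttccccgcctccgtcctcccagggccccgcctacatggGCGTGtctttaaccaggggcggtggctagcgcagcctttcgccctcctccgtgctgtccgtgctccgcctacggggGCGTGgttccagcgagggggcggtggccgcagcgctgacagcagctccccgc
Eno1, chr4:150236458-150236757, plus strand: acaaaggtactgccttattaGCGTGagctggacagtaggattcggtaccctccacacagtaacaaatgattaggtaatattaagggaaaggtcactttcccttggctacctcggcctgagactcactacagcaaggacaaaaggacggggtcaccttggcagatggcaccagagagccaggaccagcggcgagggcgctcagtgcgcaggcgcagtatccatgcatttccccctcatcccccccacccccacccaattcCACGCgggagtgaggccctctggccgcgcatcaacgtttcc
Slc2a1, chr4:119108495-119108794, plus strand: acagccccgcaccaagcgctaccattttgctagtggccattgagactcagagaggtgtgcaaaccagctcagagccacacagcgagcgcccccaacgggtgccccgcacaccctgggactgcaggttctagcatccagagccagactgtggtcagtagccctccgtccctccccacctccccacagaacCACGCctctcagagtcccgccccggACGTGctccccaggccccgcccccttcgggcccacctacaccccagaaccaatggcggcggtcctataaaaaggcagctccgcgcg
Pfkfb3, chr2:11502041-11502340, minus strand: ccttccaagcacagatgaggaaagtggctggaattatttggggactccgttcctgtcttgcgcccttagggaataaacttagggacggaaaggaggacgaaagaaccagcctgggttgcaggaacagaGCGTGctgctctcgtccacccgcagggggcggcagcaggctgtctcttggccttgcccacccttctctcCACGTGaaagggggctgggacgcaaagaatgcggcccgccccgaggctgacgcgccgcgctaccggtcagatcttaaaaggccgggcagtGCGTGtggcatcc

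These windows held 2, 2, 2 and 4 cores, where the CACGTG of Pfkfb3 counts as 2 because it reads the same on each strand. The table matched 32 of the 34 members with 51 windows, with no entry for Slc2a3 or Pdp1. The core was in 39 of the 51 member windows (76.5%) and in 43.8% of all 32851 windows of this length. The E-box CACGTG, which contains the core, was in 7 member windows (13.7%) against 7.2% of all, and the YY1 core AANATGGC was in 2 (3.9%), both of Pfkm, against 6.1% of all. Windows of a gene can overlap, and a match of letters is a description, not a binding site.

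Untransduced EPS cells held more transcript of much of the pathway than untransduced ES cells. Of the 34 members 15 were higher and 2 lower, beside 13.8% and 16.9% of the 16440 genes tested overall (30.6% in either direction). The median log2 fold change of the members was 0.37, beside -0.00 over all genes tested. Summed over members, EPS libraries held 16787 to 18190 CPM and ES libraries 13947 to 15954.

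The widest difference was in Pdk1, the HIF-regulated kinase of pyruvate dehydrogenase. It stood at 38.3, 36.2 and 46.2 CPM in ES and at 188, 187 and 200 CPM in EPS. The groups are far apart, at 2.32 ± 0.15 (adjusted p = 9.56e-09). Pdk4, a kinase known to respond to fatty acids and fasting, was 0.81 ± 0.21 higher (10.9, 11.5 and 16.5 against 20.5, 19.2 and 25.8 CPM). Pdk2 (0.55), Pdk3 (0.17), Pdha1, which encodes the E1 alpha subunit of pyruvate dehydrogenase (-0.09), and Pdp1 (0.15) were not called.

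**Figure D1:**
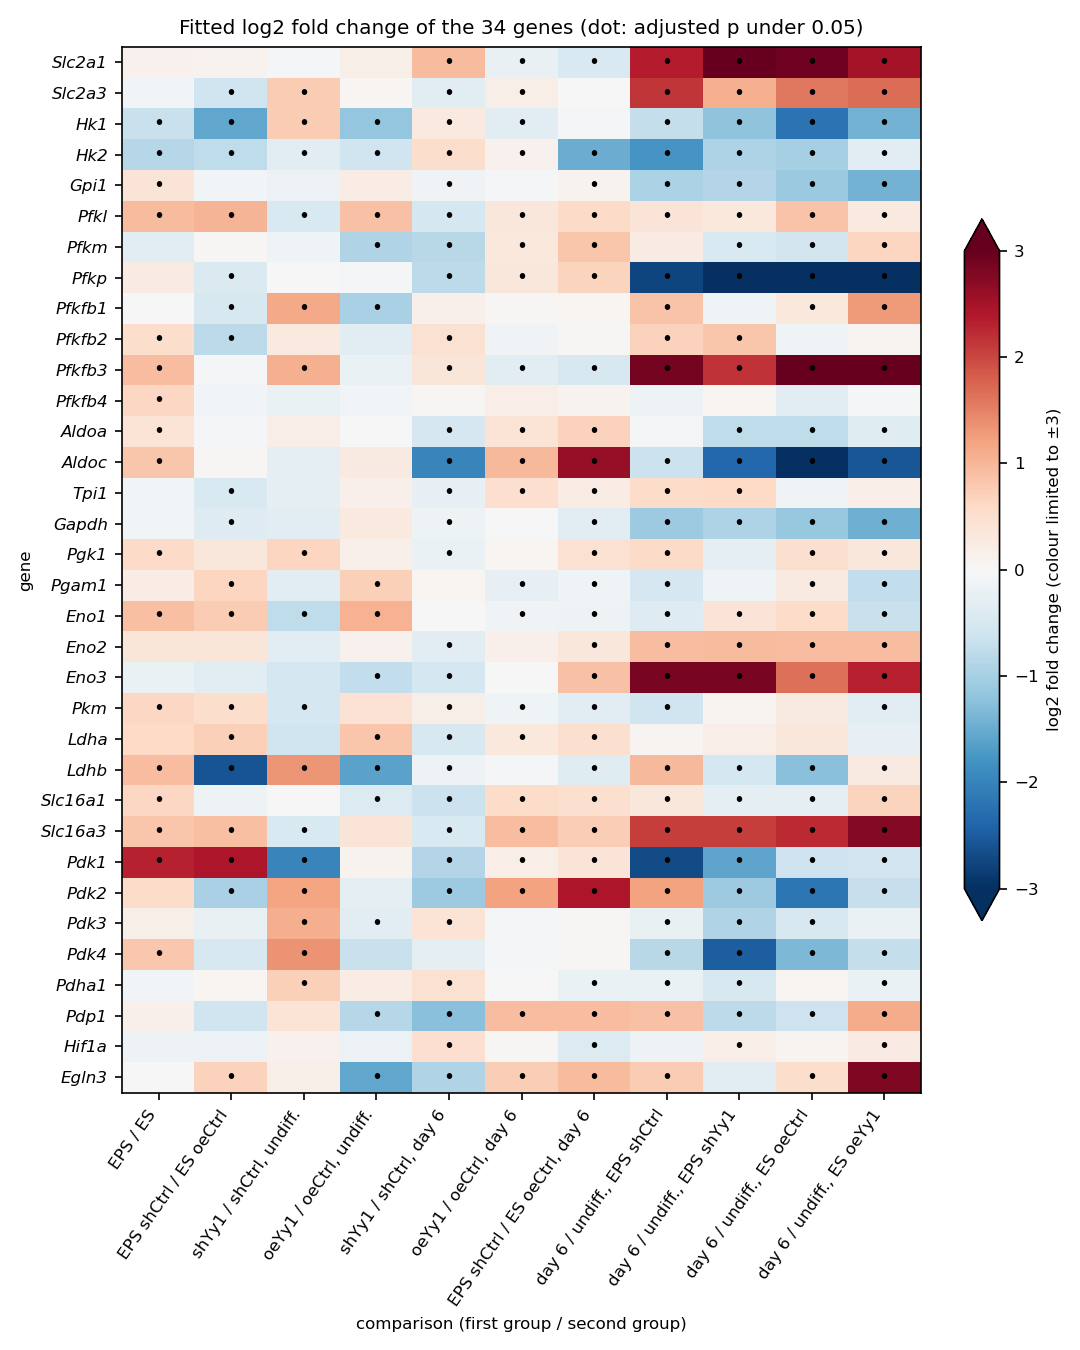
Fitted log2 fold change of each of the 34 genes (rows) in 11 comparisons (columns, first group over second), with red higher and blue lower in the first group and a dot where adjusted p was under 0.05. The Pdk1 row is dark red in both EPS against ES columns, and Slc2a1, Slc2a3, Pfkfb3, Eno3 and Slc16a3 are red in all 4 day 6 against undifferentiated columns.

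At the entry of the pathway the direction was the opposite. Hk2, the inducible mitochondria-bound hexokinase, was at 390, 365 and 383 CPM in ES and 218, 184 and 199 in EPS (-0.86 ± 0.09, adjusted p = 3.18e-06). Hk1, the widely expressed hexokinase, was at 127, 125 and 136 CPM in ES and 80.8, 74.3 and 78.3 in EPS (-0.67 ± 0.15, adjusted p = 0.0023). Both sets of libraries are separate, with ES the higher. Hk2 lies on chromosome 6, whose genes had a median of -0.29 in this comparison (265 of 737 lower). The part of the chromosome in the result was not tested. The glucose transporters Slc2a1 (180, 188 and 171 CPM in ES, 211, 204 and 140 in EPS) and Slc2a3 (1702, 1716 and 1648 in ES, 1621, 1522 and 1445 in EPS) were not called, with log2 fold changes of 0.12 ± 0.16 and -0.08 ± 0.10.

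At the phosphofructokinase step Pfkl, the liver-type subunit, was at 99.5, 107 and 91.9 CPM in ES and 182, 177 and 190 in EPS (0.94 ± 0.12, adjusted p = 1.64e-05). The other subunits were not called: Pfkm gave -0.34 ± 0.13 (adjusted p = 0.0531, and 0.0161 with the replicate number as a block), and Pfkp 0.23. Among the bifunctional regulators, Pfkfb3, whose product strongly favours fructose 2,6-bisphosphate synthesis, was at 23.1, 20.4 and 26.1 CPM in ES and 42.8, 40.0 and 44.0 in EPS (0.93 ± 0.12). Pfkfb2 was higher by 0.54 ± 0.14 and Pfkfb4 by 0.61 ± 0.20, the latter at 3.95 to 7.43 CPM and no longer called without ES replicate 2 (adjusted p = 0.0931), ES replicate 3 (0.0665), EPS replicate 1 (0.125) or EPS replicate 2 (0.0660). Pfkfb1 did not differ detectably (-0.01).

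Further along, EPS cells were higher in Gpi1 (0.39), Aldoa (0.41), Aldoc (0.84), Pgk1 (0.57), Eno1 (0.89) and Pkm (0.62). Eno1, the broadly expressed enolase, was at 1261, 1391 and 1196 CPM in ES and 2323, 2353 and 2158 in EPS. Pkm, pyruvate kinase, was at 2216, 2366 and 1971 CPM in ES and 3215, 3279 and 3108 in EPS. Neither gene's groups overlap. Aldoa was no longer called without EPS replicate 2 (adjusted p = 0.0669). Tpi1, Gapdh, Pgam1, Eno2 and Eno3 were not called, with log2 fold changes from -0.21 to 0.35; Pgam1 (0.22, adjusted p = 0.109) was called with the replicate block (adjusted p = 0.0274).

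At the lactate end Ldhb, the subunit that favours lactate oxidation, was at 397, 436 and 359 CPM in ES and 760, 780 and 624 in EPS (0.93 ± 0.12). Ldha was at 510, 556 and 479 CPM in ES and 746, 740 and 747 in EPS; these values do not overlap, but the test did not call them (0.59 ± 0.22, adjusted p = 0.0522). The transporters Slc16a1 (155, 155 and 149 against 219, 231 and 225 CPM, 0.62 ± 0.08) and Slc16a3 (15.6, 17.4 and 15.7 against 29.1, 27.6 and 26.6 CPM, 0.84 ± 0.14) were both higher in EPS. Hif1a (147, 139 and 183 CPM in ES, 107, 144 and 156 in EPS) and Egln3, a HIF prolyl hydroxylase that is itself induced by hypoxia (5.28, 6.13 and 8.59 in ES, 6.03, 5.82 and 7.10 in EPS), overlapped between the groups.

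Fibroblast markers, which feeder cells express, moved with the cell state: the sum of the 16 genes ranged from 2885 to 5256 CPM among ES libraries and from 464 to 1270 CPM among EPS libraries, with 0 of 16 higher and 14 lower. Their part in the differences between EPS and ES cells was not tested. In bulk libraries, fewer cells of a type and less RNA per cell cannot be told apart.

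The construct controls give a comparison of EPS with ES cells from libraries that share none with the first. The EPS cells there carried a control shRNA and the ES cells a different control construct, so construct and cell state cannot be told apart. Fibroblast markers summed to 254 to 256 CPM in EPS shCtrl and 33.6 to 42.4 in ES oeCtrl. Y-linked genes summed to 3.06 to 3.40 and 111 to 131 CPM, and their part was not tested. In these libraries, 8 members were higher and 10 lower in EPS, with 40.4% of all genes called (19.7% higher, 20.7% lower) and a member median of -0.07. Of the 7 members on chromosome 6, 5 were lower and 0 higher (Slc2a3, Hk2, Tpi1, Gapdh and Ldhb), and that chromosome as a whole had a median of -0.44 (338 of 737 genes lower and 84 higher). Its part in these 5 results was not tested. Higher in both comparisons were 5 members, Pfkl, Eno1, Pkm, Slc16a3 and Pdk1, which is 5 of the 15 and 5 of the 8. Lower in both were Hk1 and Hk2. Over all genes 6.42% were higher in both and 8.82% lower in both.

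Pdk1 was again far apart, at 242 and 365 CPM in EPS shCtrl and 52.1 and 60.5 in ES oeCtrl (2.42 ± 0.18, adjusted p = 2.35e-08). Pfkl was at 137 and 180 against 69.7 and 84.4 CPM (1.03 ± 0.15), Eno1 at 1611 and 2255 against 1070 and 1203 (0.76 ± 0.16), and Slc16a3 at 33.7 and 30.2 against 14.3 and 19.5 (0.90 ± 0.17). Pkm (0.52 ± 0.16) had an adjusted p of 0.372 once EPS shCtrl replicate 2 was left out. Hk2 was at 321 and 308 CPM in EPS shCtrl and 518 and 526 in ES oeCtrl (-0.75 ± 0.11), and Hk1 at 102 and 54.0 against 233 and 218 (-1.56 ± 0.18). These 7 genes had the same direction in both of these undifferentiated comparisons.

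Other members did not repeat. The difference between the untransduced and the construct comparison was called for 20.2% of all genes and for 11 of the 34 members. Ldhb was the furthest: it was higher in EPS than in ES but at 72.3 and 82.4 CPM in EPS shCtrl against 497 and 428 in ES oeCtrl (-2.59 ± 0.16), a difference between the comparisons of 3.52 ± 0.20 (adjusted p = 2.32e-08). Pfkfb2 was called in opposite directions too (0.54 and -0.78, difference 1.32 ± 0.24), and it was at 22.3 to 32.6 CPM in the untransduced cells but 3.65 to 7.57 in the 4 undifferentiated construct lines. Slc16a1 (0.62 and -0.15), Pfkfb3 (0.93 and -0.04), Aldoc (0.84 and 0.04), Pdk4 (0.81 and -0.48) and Gpi1 (0.39 and -0.07) were higher in EPS only in the untransduced pair, with the difference itself called for each. Slc2a3 (-0.08 and -0.59), Pdk2 (0.55 and -0.97) and Pfkp (0.23 and -0.44) were lower in EPS shCtrl alone, and their difference between the comparisons was called, as was that of Hk1 (-0.67 and -1.56). Pfkfb1 (-0.48), Tpi1 (-0.45) and Gapdh (-0.39) were also lower in EPS shCtrl than in ES oeCtrl. Leaving out EPS shCtrl replicate 1 ended the calls of Tpi1, Gapdh and Pfkfb1, replicate 2 those of Pfkp, Pfkfb1, Pdk2 and Egln3, ES oeCtrl replicate 1 those of Gapdh, Pfkfb1, Pfkfb2, Egln3 and Pkm, and ES oeCtrl replicate 2 those of Gapdh, Pfkp and Tpi1. Pgam1 (0.63), Egln3 (0.68) and Ldha (0.72) were higher in EPS shCtrl. Ldha overlapped between the groups, was lost without either ES oeCtrl library, and its sign turned without EPS shCtrl replicate 2 (-0.06).

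**Figure D2:**
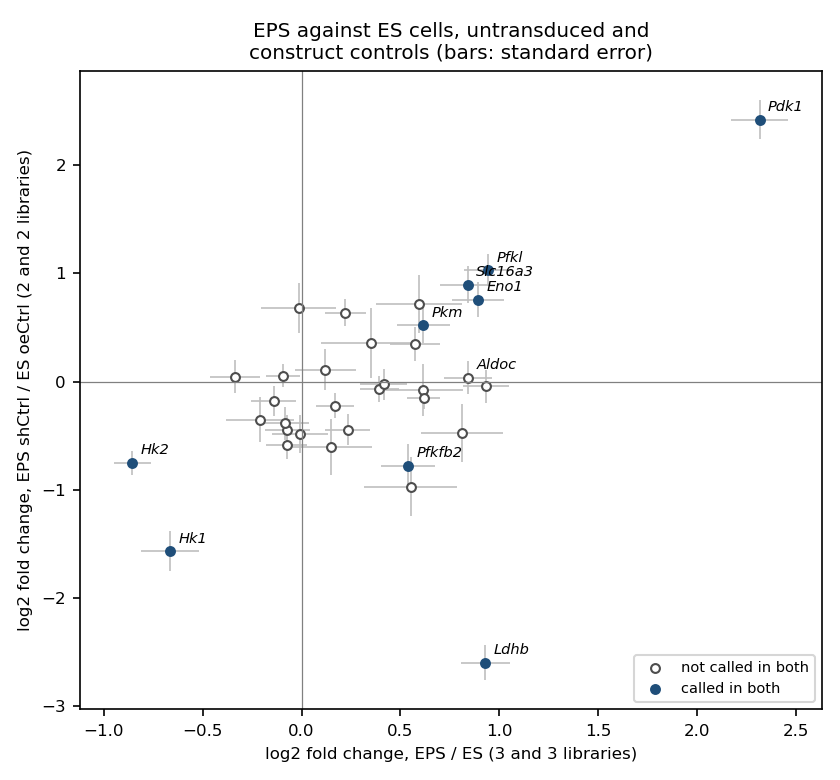
Log2 fold change of each member in EPS against ES cells (x axis, 3 and 3 libraries) and in EPS shCtrl against ES oeCtrl (y axis, 2 and 2 libraries), with standard errors as bars and filled points called in both. Pdk1 lies at 2.32 and 2.42, whereas Ldhb lies at 0.93 and -2.59.

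Depletion of Yy1 in EPS cells went with a fall of Pdk1 and a rise of other kinases. EPS shYy1 had 10 members higher and 6 lower than EPS shCtrl, where 28.5% of all genes were called (15.1% higher, 13.3% lower). The member median was -0.03 beside -0.01 over all genes. Cell type markers moved with this comparison: of the primitive endoderm markers tested 1 was higher and 7 lower of 11 (median -0.92), of trophoblast markers 4 higher and 1 lower of 8 (1.08), and of fibroblast markers 4 higher and 1 lower of 16 (1.46). Fibroblast sums went the other way, from 254 to 256 CPM in EPS shCtrl to 179.7 to 180.3 in EPS shYy1, with Fstl1 at 206 and 93.2. So did primitive endoderm sums, from 327 to 442 CPM to 529 to 535, with Sparc at 197 and 417. Trophoblast sums went from 97.3 to 145 CPM to 188 to 206. The part of these markers in the results was not tested. Pdk1 fell from 242 and 365 to 75.6 and 86.9 CPM (-1.97 ± 0.17, adjusted p = 5.50e-07). It remained called under every alternative, at -1.59 without EPS shCtrl replicate 2 and -2.28 without EPS shCtrl replicate 1. The 2 depleted libraries stayed above all 3 ES libraries.

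The other 5 members that fell rested on few libraries. Eno1 went from 1611 and 2255 to 1214 and 1189 CPM (-0.76 ± 0.16), Pkm from 2465 and 3460 to 2203 and 2131 (-0.52 ± 0.16), Pfkl from 137 and 180 to 124 and 120 (-0.45 ± 0.14), Slc16a3 from 33.7 and 30.2 to 26.2 and 22.3 (-0.46 ± 0.17) and Hk2 from 321 and 308 to 276 and 254 (-0.31 ± 0.11). In each of these genes, picked as called, the depleted libraries were below both controls. Without EPS shCtrl replicate 2 the adjusted p was 0.0587 for Eno1, 0.424 for Pkm and 0.421 for Pfkl, and only 9 members were called, 8 higher and Pdk1 lower. Pkm and Pfkl were also lost without either EPS shYy1 library, and Slc16a3 and Hk2 without any of the 4 libraries.

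Ldha, at 478 and 1084 CPM in the control and 497 and 595 in the depleted cells, was not called (-0.60 ± 0.27, adjusted p = 0.110). It was -1.11 (adjusted p = 4.76e-05) without EPS shCtrl replicate 1 and 0.17 without replicate 2, so the control library chosen decides its direction.

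Of the 10 members that rose, 4 are all the X-linked members: Pfkfb1 (10.4 and 10.1 to 22.9 and 24.0 CPM, 1.13 ± 0.17), Pdk3 (42.4 and 39.2 to 88.6 and 92.2, 1.09 ± 0.12), Pdha1 (164 and 163 to 271 and 294, 0.72 ± 0.11) and Pgk1 (333 and 458 to 663 and 645, 0.65 ± 0.15). The X chromosome as a whole had a median of 0.83, with 338 of 578 genes higher and 13 lower. These 4 genes rose as most of their chromosome did, and the part of the chromosome in their change cannot be told apart.

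The 6 autosomal members that rose were Pdk4 (10.9 and 4.82 to 20.3 and 21.4 CPM, 1.36 ± 0.26), Ldhb (72.3 and 82.4 to 201 and 202, 1.31 ± 0.16), Pdk2 (6.99 and 3.76 to 12.4 and 13.1, 1.19 ± 0.27), Pfkfb3 (16.5 and 19.8 to 39.2 and 40.1, 1.06 ± 0.15), Slc2a3 (994 and 865 to 1474 and 1830, 0.77 ± 0.13) and Hk1 (102 and 54.0 to 148 and 125, 0.76 ± 0.18). None of their groups overlap, but these genes were picked as called. The kinases thus differed among themselves, Pdk1 falling while Pdk2, Pdk3 and Pdk4 rose. Pdk4 was 1.99 without EPS shCtrl replicate 1 and 0.91 without replicate 2, while Pdk2 (adjusted p = 0.0547) and Hk1 (0.0559) were lost without replicate 2. Hk1 was also lost without EPS shYy1 replicate 1 (adjusted p = 0.0556), and Pgk1 without EPS shCtrl replicate 1 (0.0590). The remaining members, Slc2a1, Gpi1, Pfkm, Pfkp, Pfkfb2, Pfkfb4, Aldoa, Aldoc, Tpi1, Gapdh, Pgam1, Eno2, Eno3, Slc16a1, Pdp1, Hif1a and Egln3, were not called, with log2 fold changes from -0.53 to 0.42. Slc2a1 was at 194 and 244 CPM in the control and 214 and 230 in the depleted cells, Slc16a1 at 176 and 170 against 174 and 184, Hif1a at 145 and 128 against 153 and 159, and Egln3 at 11.3 and 11.1 against 12.5 and 13.9. The first 2 of these overlap between the groups and the last 2 do not.

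**Figure D3:**
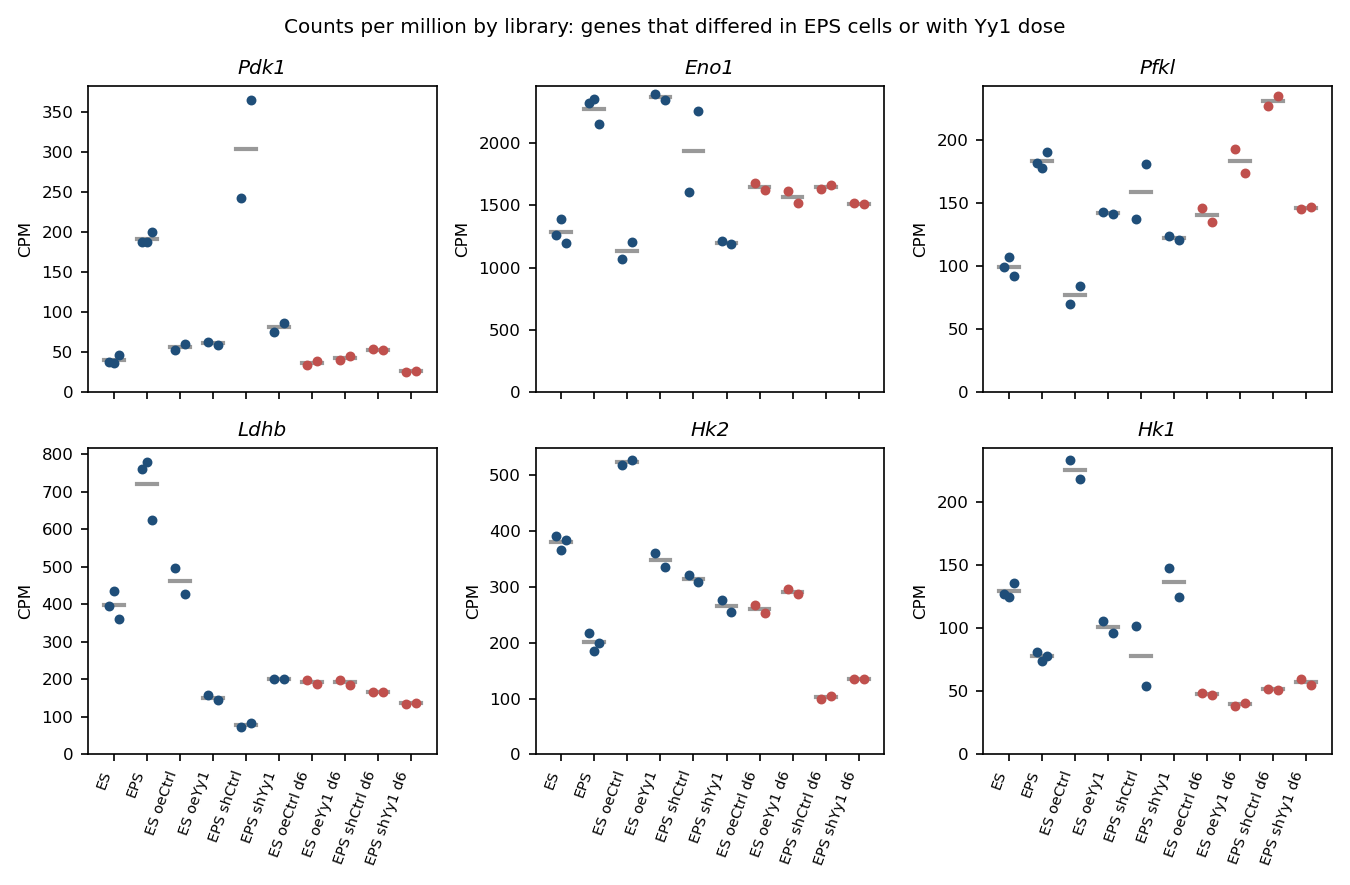
CPM of 6 genes (y axis from 0) in each library (points) and the mean of each group (grey bars), with undifferentiated groups in blue and day 6 (d6) in red. Pdk1 is highest in EPS and EPS shCtrl, while Eno1 and Pfkl are lower in EPS shYy1 than in EPS shCtrl and higher in ES oeYy1 than in ES oeCtrl.

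With Yy1 overexpression in ES cells 4 members rose and 10 fell, with 32.0% of all genes called (14.8% higher, 17.1% lower) and a member median of -0.03 beside 0.01 over all genes. Of 16 fibroblast markers 4 were higher and 0 lower (median 1.79), and of 12 pluripotent cell markers 4 were higher and 1 lower (0.27), and their part in the results was not tested. The members that rose were Eno1 (1070 and 1203 to 2393 and 2345 CPM, 1.05 ± 0.16, adjusted p = 0.000105), Pfkl (69.7 and 84.4 to 143 and 141, 0.87 ± 0.15), Ldha (452 and 497 to 868 and 830, 0.83 ± 0.27) and Pgam1 (186 and 199 to 313 and 325, 0.73 ± 0.13). In all 4 genes, which were picked as called, the overexpressing libraries were above both controls. Ldha was not called with the replicate block (adjusted p = 0.0656) or without any of the 4 libraries.

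Pdk1 did not follow: it was at 52.1 and 60.5 CPM in ES oeCtrl and 63.3 and 58.8 in ES oeYy1 (0.11 ± 0.17, adjusted p = 0.674). The overexpressing libraries overlapped with their controls and lay below every EPS and EPS shCtrl library.

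The members that fell were Ldhb (497 and 428 to 158 and 145 CPM, -1.61 ± 0.16, adjusted p = 1.13e-06), Egln3 (6.12 and 7.65 to 2.22 and 2.47, -1.56 ± 0.26), Hk1 (233 and 218 to 105 and 96.0, -1.17 ± 0.18), Pfkfb1 (-0.96), Pfkm (51.9 and 41.8 to 26.9 and 23.2, -0.90 ± 0.16), Pdp1 (-0.86), Eno3, the muscle-type enolase (-0.74), Hk2 (518 and 526 to 361 and 335, -0.59 ± 0.11), Slc16a1 (194 and 185 to 139 and 147, -0.41 ± 0.10) and Pdk3 (-0.35). The groups do not overlap in any of these 10 genes, which were picked as called, and the share of all genes doing so was not counted. Pdp1 and Pdk3 were lost without any of the 4 libraries, Eno3 without ES oeCtrl replicate 1 (adjusted p = 0.164) or ES oeYy1 replicate 1 (0.128), and Slc16a1 without ES oeYy1 replicate 1 (0.0710); without ES oeYy1 replicate 1, 9 members were called. Fitting the 4 libraries alone called 22 members, 10 higher and 12 lower. The other members were not called; among them Slc2a1 was at 185 and 217 against 233 and 222 CPM, Slc2a3 at 1362 and 1397 against 1444 and 1424, Pkm at 1880 and 2211 against 2804 and 2701 (0.42, adjusted p = 0.0592, and 0.00717 with the replicate block), Slc16a3 at 14.3 and 19.5 against 23.6 and 20.6, and Hif1a at 156 and 149 against 136 and 137.

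The depletion and overexpression comparisons share no library. Between them 2 members, Pfkl and Eno1, were lower with depletion and higher with overexpression, where 4.36% of all genes were. A further 4, Hk1, Pfkfb1, Ldhb and Pdk3, were higher with depletion and lower with overexpression, where 5.87% of all genes were. Hk2 was lower in both (1.08% of all genes), and no member was higher in both (1.42%).

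At day 6 more members were called, as were more of all genes, in a separate fit of 8 libraries. In the day 6 libraries labelled shYy1, whose Yy1 transcript did not differ detectably from the control, 9 members were higher and 20 lower, against 30.9% and 30.4% of all 15927 genes tested (61.3% in either direction). The member median was -0.22 beside -0.01 over all genes. In ES oeYy1 at day 6, 15 members were higher and 6 lower, with 20.3% and 21.6% of all genes (41.9% in either direction), and the median was 0.09 beside 0.00. Cell type markers moved with these lines: the 8 neuroectoderm markers summed to 112 to 115 CPM in EPS shCtrl, 314 to 324 in the libraries labelled shYy1, 407 to 411 in ES oeCtrl and 306 to 312 in ES oeYy1. The 14 primitive endoderm markers summed to 1364 to 1378, 1583 to 1601, 1157 to 1205 and 923 to 924 CPM in the same order, and the 12 pluripotent cell markers to 715 to 733, 377 to 399.6, 634 to 641 and 650.3 to 674. Single genes carried much of a sum: Tdgf1 was at 373 CPM in EPS shCtrl and 105 in the libraries labelled shYy1. By calls, 6 of 12 pluripotent cell markers were higher and 3 lower in the latter (median 0.23). Of 11 primitive endoderm markers tested, 4 were higher and 6 lower there (-0.34). In ES oeYy1 both lists had 3 higher and 7 lower (-0.56 and -0.65). In EPS shCtrl against ES oeCtrl, 2 pluripotent cell markers were higher and 9 lower (-1.43). The part of the markers in the differences between the lines was not tested.

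Lower in the libraries labelled shYy1 and higher in ES oeYy1 at day 6 were 14 members, which is 14 of the 20 and 14 of the 15 (41.2% of members, beside 12.6% of all genes). They were Slc2a3, Pfkl, Pfkm, Pfkp, Aldoa, Aldoc, Tpi1, Ldha, Slc16a1, Slc16a3, Pdk1, Pdk2, Pdp1 and Egln3. The opposite pattern held for 4 members, Slc2a1, Hk1, Pfkfb3 and Pkm (beside 14.6% of all genes). Hk2 was higher in both (2.85% of all genes), and none was lower in both (1.78%). Both kinds of member include transporters, early enzymes and late enzymes. Chromosome 6 carries Hk2, Slc2a3 and Tpi1. In ES oeYy1 against ES oeCtrl at day 6 it had a median of 0.11 (237 of 737 genes higher and 103 lower). Chromosome 3, which carries Slc16a1, had a median of 0.16 there (264 of 708 higher and 60 lower). The part of these chromosomes in the results was not tested.

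Aldoc, the brain-type aldolase, was at 18.6 and 21.8 CPM in day 6 EPS shCtrl and 4.79 and 4.50 in the libraries labelled shYy1 (-1.98 ± 0.14, adjusted p = 2.00e-18), and at 2.96 and 2.95 in ES oeCtrl and 6.41 and 5.50 in ES oeYy1 (0.97 ± 0.20). Pdk2 was at 14 and 13.3 against 6.27 and 5.25 CPM (-1.10 ± 0.15) and at 2.36 and 2.18 against 5.57 and 5.29 (1.21 ± 0.21). Pdp1 was at 15.4 and 15.1 against 6.22 and 5.43 CPM (-1.24 ± 0.14) and at 6.92 and 7.66 against 14.3 and 14.1 (0.92 ± 0.14). In all 3 genes, picked as called, the groups of each pair do not overlap.

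Egln3 was at 21.3 and 20.8 CPM in EPS shCtrl, 10.9 and 9.62 in the libraries labelled shYy1, 9.83 and 9.96 in ES oeCtrl and 17.1 and 17.0 in ES oeYy1 (-0.90 ± 0.11 and 0.74 ± 0.12). The lactate exporter Slc16a3 was at 148 and 148, 91.8 and 104, 83.4 and 76.5, and 160 and 153 CPM in the same order (-0.47 ± 0.05 and 0.93 ± 0.06). Slc16a1 was at 245 and 237, 143 and 138, 158 and 156, and 242 and 233 CPM (-0.64 ± 0.05 and 0.56 ± 0.05). In these 3 genes EPS shCtrl and ES oeYy1 form the high pair.

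Ldha was at 903 and 943 CPM in EPS shCtrl, 607 and 604 in the libraries labelled shYy1, 610 and 579 in ES oeCtrl and 799 and 713 in ES oeYy1 (-0.47 ± 0.04 and 0.31 ± 0.05). Pfkl followed the same order, at 227 and 234, 145 and 147, 146 and 135, and 192 and 174 CPM. Pfkm, Pfkp, Aldoa and Tpi1 changed by -0.82, -0.78, -0.50 and -0.25 in the libraries labelled shYy1 and by 0.31, 0.33, 0.41 and 0.49 in ES oeYy1, with Pfkm in the latter lost without day 6 ES oeCtrl replicate 2 (adjusted p = 0.0873) or ES oeYy1 replicate 1 (0.207). Pdk1 was at 53.6 and 52.1, 25.3 and 27, 34.2 and 39.0, and 40.7 and 45.6 CPM (-0.88 ± 0.08 and 0.20 ± 0.08, the latter lost in DESeq2 with adjusted p = 0.128, without day 6 ES oeCtrl replicate 1 with 0.381 and without day 6 ES oeYy1 replicate 2 with 0.359).

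Slc2a1, the basal glucose transporter GLUT1, was at 1228 and 1240 CPM in EPS shCtrl and 2187 and 2166 in the libraries labelled shYy1 (0.95 ± 0.04, adjusted p = 4.35e-29), and at 1550 and 1491 in ES oeCtrl and 1358 and 1339 in ES oeYy1 (-0.21 ± 0.04). Slc2a3 (GLUT3) went the other way, at 4563 and 4531 against 3353 and 3306 CPM (-0.32 ± 0.04) and 4062 and 4151 against 4857 and 4760 (0.19 ± 0.04). Hk2 was at 99.5 and 105 against 134 and 135 CPM (0.53 ± 0.05) and at 267 and 254 against 296 and 286 (0.12 ± 0.04, lost in DESeq2 with adjusted p = 0.0791 and without day 6 ES oeCtrl replicate 2 with 0.262). Hk1 changed by 0.29 and -0.32, Pfkfb3 by 0.35 and -0.35 and Pkm by 0.17 and -0.13. Pkm was at 2138 and 2205 CPM in EPS shCtrl, 2237 and 2213 in the libraries labelled shYy1, 2522 and 2423 in ES oeCtrl and 2343 and 2307 in ES oeYy1. It was not called in either comparison under scaling by library totals alone, which moves the median of all genes to -0.15 in the shYy1 comparison.

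Hif1a was at 137 and 132 CPM in EPS shCtrl and 176 and 171 in the libraries labelled shYy1 (0.50 ± 0.05), and at 153 and 171 against 167 and 173 in the ES lines (0.03 ± 0.05, not called). The X-linked Pdha1 (0.46) and Pdk3 (0.41) were higher in the libraries labelled shYy1, where the X chromosome had a median of 0.27, and Pgk1 was lower (-0.19). Pfkfb2 was higher (0.45) with overlapping libraries, and Gpi1, Gapdh, Ldhb, Eno2 and Eno3 were lower (-0.54 to -0.11). Ldhb was at 165 and 168 CPM in EPS shCtrl and 133 and 138 in the libraries labelled shYy1 (-0.16 ± 0.05), and at 199 and 188 in ES oeCtrl and 198 and 186 in ES oeYy1 (-0.06, not called). Of the 5 genes only Eno3 was called without each library in turn. In ES oeYy1, Pgam1 and Eno1 were lower (-0.25 and -0.11), the latter lost without day 6 ES oeCtrl replicate 1 (adjusted p = 0.212). Pfkfb1, Pfkfb4 and Pdk4 were called in neither comparison.

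**Figure D4:**
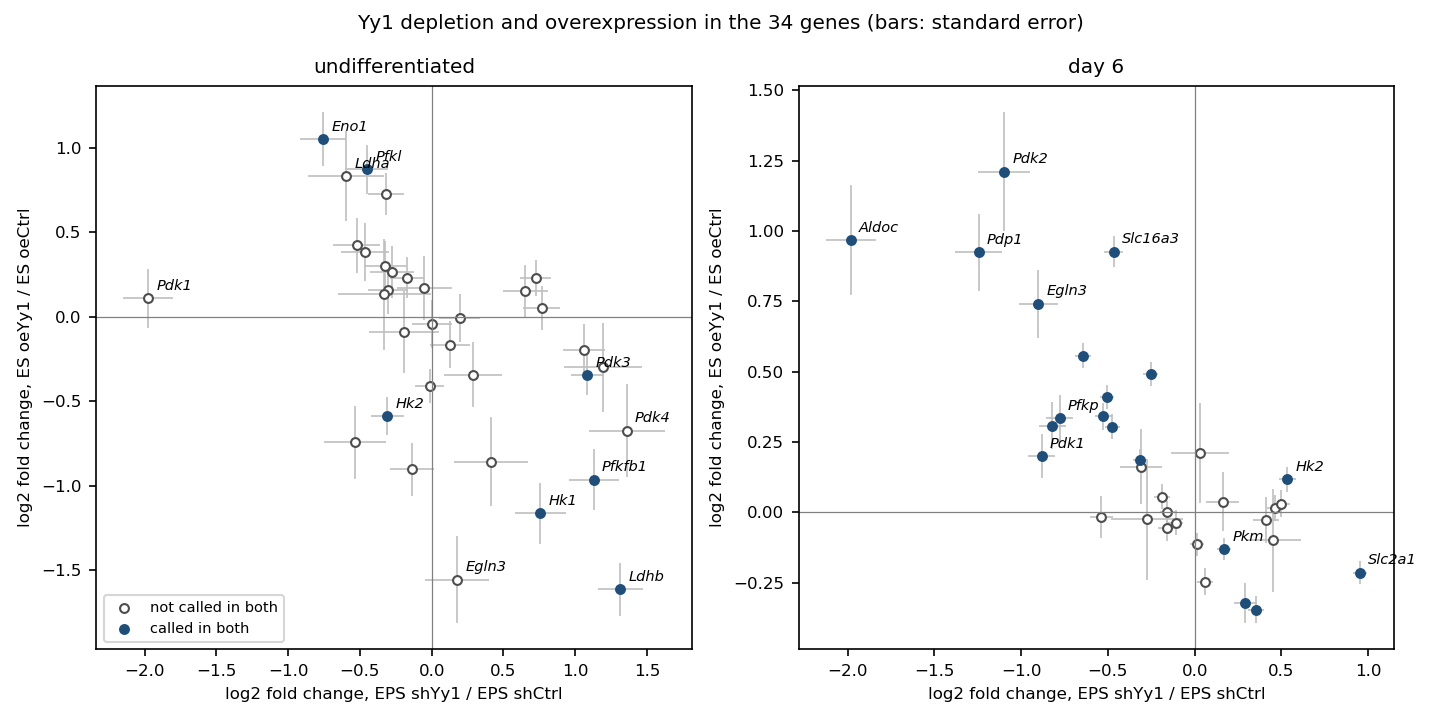
Log2 fold change of each member with Yy1 shRNA in EPS cells (x axis) and with Yy1 overexpression in ES cells (y axis), in undifferentiated cells (left) and at day 6 (right), with standard errors as bars and filled points called in both. At day 6, 14 members lie in the upper left as filled points, with Aldoc, Pdk2 and Pdp1 at the far end, while Slc2a1 lies in the lower right.

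Between the day 6 controls, EPS shCtrl had 17 members higher and 10 lower than ES oeCtrl, with 64.1% of all genes called (31.6% higher, 32.4% lower). Aldoc (2.62 ± 0.16), Pdk2 (2.43 ± 0.18), Egln3 (0.94), Pdp1 (0.92), Eno3 (0.88) and Pfkm (0.84) were higher in EPS shCtrl. Hk2 was lower (-1.50 ± 0.05, at 99.5 and 105 against 267 and 254 CPM), as were Slc2a1 (-0.45), Pfkfb3 (-0.47) and Hif1a (-0.41). Chromosome 6, which carries Hk2 and the also lower Gapdh (-0.34) and Ldhb (-0.37), had a median of -0.34 (387 of 737 genes lower and 120 higher), and its part in these results was not tested. Pdk1 kept its direction but at a smaller size, 0.39 ± 0.07 against 2.42 before differentiation (change of the difference -2.05 ± 0.27, adjusted p = 6.18e-05). This comparison shares its controls with the 2 before it. Construct and cell state cannot be told apart here either.

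From undifferentiated to day 6 the members moved in both directions. In EPS shCtrl 16 members rose and 13 fell (37.5% and 36.6% of all 17207 genes tested, 74.1% in all). In EPS shYy1 11 rose and 16 fell (37.9% and 37.4% of all genes, 75.4% in all), in ES oeCtrl 12 and 15 (37.1% and 35.9%, 73.0% in all) and in ES oeYy1 15 and 14 (35.7% and 36.9%, 72.7% in all). The member medians were 0.16, -0.29, -0.11 and 0.01 in that order, beside -0.03 to 0.03 over all genes. Summed member levels at day 6 were 15126 to 17683 CPM, inside the undifferentiated range of 13947 to 19191. The 2 stages were deposited separately, so stage and deposition cannot be told apart, and pluripotent markers, 12 of 12 of which fell in every line, moved with stage. Fibroblast markers summed to 33.6 to 256 CPM in the undifferentiated construct lines and 1176 to 1360 CPM at day 6, and their part in the stage results was not tested.

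Rising in all 4 lines were 7 members (20.6%, beside 21.6% of all genes): Slc2a1, Slc2a3, Pfkl, Pfkfb3, Eno2, Eno3 and Slc16a3. Slc2a1 went from 185 to 244 CPM in the undifferentiated construct lines to 1228 to 2187 at day 6, by 2.35 in EPS shCtrl, 3.35 in EPS shYy1, 2.92 in ES oeCtrl and 2.50 in ES oeYy1 (SE 0.11 in each). Slc2a3 rose from 865 to 1830 CPM to 3306 to 4857, by 2.15, 1.06, 1.58 and 1.68 in that order. Both transporters were separate between stages in every line.

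Pfkfb3 rose from 16.2 to 40.1 CPM to 141 to 188, by 2.87, 2.16, 3.31 and 3.13, and Slc16a3 from 14.3 to 33.7 CPM to 76.5 to 160, by 2.08, 2.07, 2.24 and 2.75. Eno3 rose from 7.13 to 14.9 CPM to 37.9 to 83.1, by 2.86, 2.85, 1.64 and 2.34. Eno2, the neuron-enriched enolase, rose by 0.92 to 0.94 and Pfkl by 0.30 to 0.87. Pfkl was lost without any of the 4 libraries in EPS shYy1 (adjusted p from 0.0744 to 0.133), and in ES oeYy1 without ES oeYy1 replicate 1, replicate 2 or day 6 replicate 1.

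Falling in all 4 lines were 8 members (23.5%, beside 19.4% of all genes): Hk1, Hk2, Gpi1, Pfkp, Aldoc, Gapdh, Pdk1 and Pdk4. Pfkp, the platelet-type phosphofructokinase, fell from 245 to 432 CPM to 25.1 to 50.0, with log2 fold changes of -2.76, -3.55, -3.87 and -3.53 (SE 0.12 to 0.13). Aldoc changed by -0.65, -2.36, -3.23 and -2.56, to 2.95 to 21.8 CPM. Gapdh, often taken as a constant reference, fell from 3524 to 6857 CPM to 1789 to 2609, with log2 fold changes of -1.10, -0.94, -1.14 and -1.47, and its share of the summed member CPM went from 24.6 to 36.3% to 11.8 to 15.7%. Gpi1 fell too (-1.41 to -0.88).

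Hk2 changed by -1.76, -0.92, -1.0 and -0.33, and Hk1 by -0.72, -1.20, -2.22 and -1.41. Pdk1 changed by -2.67, -1.58, -0.62 and -0.57, leaving 25.3 to 53.6 CPM in all 8 day 6 libraries. In ES oeCtrl that call was lost without undifferentiated replicate 2 (adjusted p = 0.104) or day 6 replicate 1 (0.0824), and in ES oeYy1 without undifferentiated replicate 1 (0.126), replicate 2 (0.0634) or day 6 replicate 1 (0.132). Pdk4 changed by -0.83, -2.47, -1.34 and -0.72. In EPS shCtrl, Pdk4 overlapped between stages and was -0.15 and no longer called without undifferentiated replicate 1. In ES oeYy1 it was lost without undifferentiated replicate 1 or 2 or day 6 replicate 2.

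**Figure D5:**
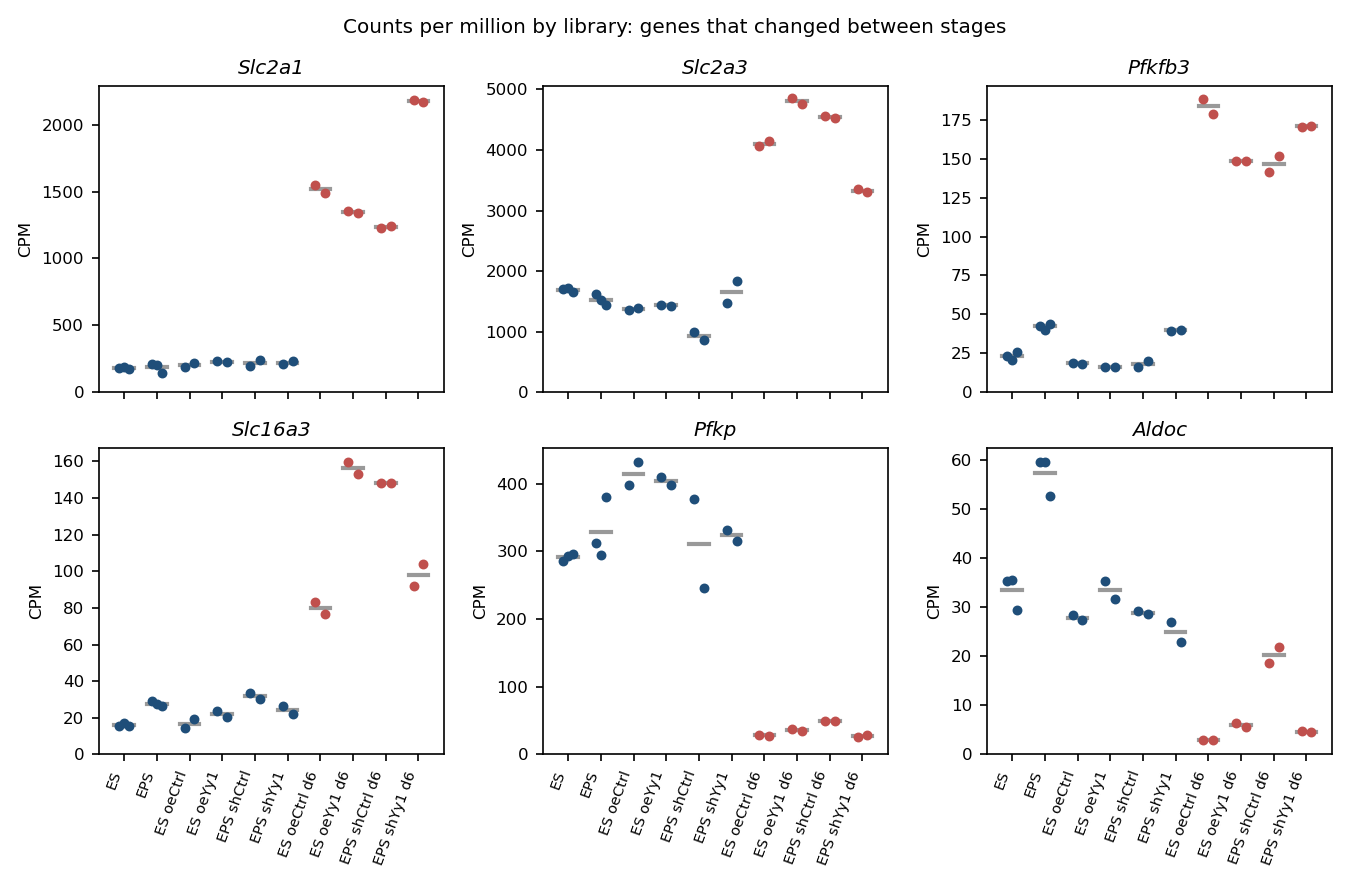
CPM of 6 genes (y axis from 0) in each library (points) with group means (grey bars), undifferentiated groups in blue and day 6 (d6) in red. Slc2a1, Slc2a3, Pfkfb3 and Slc16a3 are higher and Pfkp and Aldoc lower in every day 6 group than in its undifferentiated line.

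Another 7 members rose in some lines and fell in others (20.6%, beside 13.7% of all genes): Pfkm, Pgam1, Eno1, Ldhb, Slc16a1, Pdk2 and Pdp1. Ldhb went from 72.3 and 82.4 to 165 and 168 CPM in EPS shCtrl (0.96 ± 0.09) but from 497 and 428 to 199 and 188 in ES oeCtrl (-1.25 ± 0.09), so the difference between these lines went from -2.59 to -0.37. Pdk2 rose by 1.22 in EPS shCtrl and fell in EPS shYy1 (-1.09), ES oeCtrl (-2.18) and ES oeYy1 (-0.70). Egln3 rose in EPS shCtrl (0.77), ES oeCtrl (0.52) and most in ES oeYy1 (2.22 and 2.47 to 17.1 and 17.0 CPM, 2.79 ± 0.18). Ldha and Pfkfb4 were called in no line; Ldha in EPS shCtrl was 0.91 without EPS shCtrl replicate 2 and -0.38 without replicate 1. Hif1a rose only slightly where called, by 0.21 in EPS shYy1 and 0.25 in ES oeYy1. Aldoa, Tpi1, Pgk1, Pfkfb1, Pfkfb2, Pkm, Pdk3 and Pdha1 were called in 2 or 3 lines, between -0.91 and 1.28. The X-linked Pdk3 and Pdha1 fell in EPS shYy1, where the X chromosome had a median of -0.40 (298 of 610 genes lower and 195 higher). In EPS shCtrl, where both also fell, its median was 0.23. The part of the X chromosome in these results was not tested.

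Differences between the construct lines were also compared between stages. The interaction was called for 23 members with the Yy1 shRNA (7 higher and 16 lower, beside 21.4% and 20.1% of all genes, 41.5% in all). Among the 16 were all 4 X-linked members (median -0.76), and the X chromosome had a median of -0.48 in this interaction (235 of 610 genes lower and 61 higher), whose part was not tested. It was called for 20 with overexpression (13 higher and 7 lower, beside 17.7% and 19.9%, 37.6% in all) and for 24 between the control lines (14 higher and 10 lower, beside 22.8% and 25.9%, 48.7% in all). For Pdk1 the log2 fold change of the libraries labelled shYy1 against EPS shCtrl was 1.09 ± 0.27 higher at day 6, and so nearer to 0 (adjusted p = 0.00717). For Slc2a1 it was 1.00 ± 0.15 higher, with no difference detected before differentiation.

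Neighbouring pathways give the setting. Of 21 other HIF target genes, a list made with earlier results known, 15, 13, 13 and 13 rose and 3, 6, 6 and 3 fell at day 6 in EPS shCtrl, EPS shYy1, ES oeCtrl and ES oeYy1, with medians of 1.19, 1.03, 0.48 and 0.75 beside the same all-gene medians and 35.7 to 37.9% of all genes rising and 35.9 to 37.4% falling. Ddit4, a stress-induced mTORC1 inhibitor, rose by 3.20 ± 0.09 in EPS shCtrl, while Ak4, a mitochondrial adenylate kinase, fell (-2.22 ± 0.10). In EPS against ES cells the list split, 6 higher and 6 lower (median 0.11, with 13.8% and 16.9% of all genes), with Ak4 at 345 CPM in ES and 78.1 in EPS (-2.07 ± 0.14). With Yy1 depletion 9 rose and 3 fell (median 0.48, with 15.1% and 13.3% of all genes). With overexpression 4 rose and 7 fell, but the median was 0.09 (14.8% and 17.1% of all genes). Ddit4 changed by 1.59 ± 0.13 and -2.58 ± 0.13, and the helix-loop-helix repressor Bhlhe40 by 1.15 ± 0.16 and -2.41 ± 0.16. Vegfa, the vascular growth factor, was at 27.7 CPM in ES oeYy1 and 166 in ES oeCtrl (-2.59 ± 0.33). Ddit4 and Bhlhe40 rose in the depleted cells and Pdk1 fell, and the part of HIF in these changes was not tested.

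Of 9 HIF pathway regulators, 1 was higher and 3 lower in EPS than in ES, beside 13.8% and 16.9% of all genes. Vhl, the ubiquitin ligase subunit that directs HIF alpha turnover, was at 26.6 against 46.6 CPM (-0.74 ± 0.11). Epas1, encoding HIF-2 alpha, was lower in EPS shYy1 (-0.98 ± 0.17) and fell at day 6 in EPS shCtrl (-2.68 ± 0.15). Among 9 genes of mitochondrial pyruvate entry, 6, 6, 6 and 5 fell and 1, 2, 2 and 0 rose at day 6 in the 4 lines, beside 36.6%, 37.4%, 35.9% and 36.9% of all genes falling, led by Pdp2 (-2.20, -2.36, -2.48 and -1.51), and Pdp2 was lower in EPS than ES (-1.41 ± 0.13). Of 11 pentose phosphate pathway genes, 8, 7, 7 and 7 fell and 1, 1, 2 and 1 rose at day 6, beside the same shares of all genes. Of 16 tested genes among 21 other glycolytic isoenzymes and transporters, 1 was higher and 2 lower in EPS than in ES, below the shares of all genes, the latter including Tigar, a fructose bisphosphatase of this pathway (-0.63 ± 0.10). Gluconeogenesis (7 listed, 5 tested) had Pck2 falling in all 4 lines at day 6 (-1.23, -3.31, -3.45 and -1.46), and of 11 glycogen genes 3 to 5 rose and 3 to 5 fell there.

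Reads of near-identical copies can be divided by unique counting. Eno1b, a copy of Eno1, held 83.1 to 229 CPM; with both added up, Eno1 was 0.89 higher in EPS than ES, -0.75 with depletion and 1.06 with overexpression, all called. Pgam1-ps2 held 0.836 to 10.7 CPM, and no other listed copy passed 1.51 CPM.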

How the data were processed

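Total RNA was sequenced from the 22 libraries. The authors deposited raw counts of reads per gene symbol, per the files; CASAVA, Bowtie2 2.3.2 and the builds mm10 and GRCm38.p6 are named in the submitters' processing notes, and the counting tool and its strand setting were not given in the sources used here. Rows for reads without a gene (no feature 5.61 to 8.62%, ambiguous 3.70 to 5.32%, not unique 5.45 to 6.66%) were left out of totals and tests. CPM was computed from gene counts without further scaling.

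Groups followed the sample titles, which name the construct of the day 6 controls where the genotype reads only as control. edgeR 4.0.16 (R 4.3.3) with TMM factors, filterByExpr and a robust quasi-likelihood fit was run on 3 models: 14 undifferentiated libraries in 6 groups (16440 genes tested), 8 day 6 libraries in 4 groups (15927) and 16 libraries of the 4 construct lines in 8 groups (17207). Libraries of all groups in a model share 1 estimate of the spread. Benjamini-Hochberg adjustment ran over all genes tested, with 0.05 as the threshold. The script was tested on simulated data.

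All 34 members are described. The members, the neighbouring gene lists and the cell type marker lists were chosen with earlier results of these data known. From the neighbouring lists, up to 3 called genes per list and comparison with the smallest p could be named. Every library's value is given for 12 members fixed by name and for the called members with the largest changes. Alternatives were DESeq2 1.42.0, other scalings, no count filter, a replicate block, only the libraries compared, Eno1 added to Eno1b, and leaving out each library.

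Same-numbered replicates deviated together in EPS against ES (correlations of 0.162, 0.241 and 0.451). In the other comparisons the correlations were -0.030 to 0.085. The main fits, and so the p-values given for them, did not pair libraries. Replicate numbers entered only through the replicate block alternative, which called 19 members in EPS against ES where the main fit called 17. No 2 libraries of the same group agreed within sampling noise, and pairs across groups were not checked. Promoter sequences are from RefSeq (GRCm38.p6). The other 41 samples of the series were not analysed here.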

Additional observations from a re-analysis of the deposited data

Results flagged for a closer look

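Some members were called in opposite directions before and after differentiation, with the difference between the stages called by edgeR's interaction term. Several of these calls did not hold under every alternative. Values are the undifferentiated log2 fold change, that at day 6 and the change between them with its adjusted p. With the Yy1 shRNA, where Yy1 transcript was not detectably lower at day 6, Slc2a3 went from 0.77 to -0.32 (change -1.09, 2.96e-07), Hk2 from -0.31 to 0.53 (0.84, 1.17e-06) and Pgk1 from 0.65 to -0.19 (-0.85, 0.0016). Pkm went from -0.52 to 0.17 (0.69, 0.00926), Ldhb from 1.31 to -0.16 (-1.48, 1.05e-08) and Pdk2 from 1.19 to -1.10 (-2.31, 1.02e-06). The transporter Slc2a3 and the kinase Pdk2 were thus higher than the control before differentiation and lower after it. Pgk1 is X-linked, and the X chromosome had a median of -0.48 in this change. The undifferentiated calls of Hk2, Pkm, Pdk2 and Pgk1 were lost on leaving out single libraries, as was the day 6 call of Ldhb. Pkm at day 6 was not called under scaling by library totals alone.

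With Yy1 overexpression Hk2 went from -0.59 to 0.12 (change 0.67, 1.68e-05), Pfkm from -0.90 to 0.31 (1.18, 1.07e-05) and Pgam1 from 0.73 to -0.25 (-1.01, 4.96e-06). Eno1 went from 1.05 to -0.11 (-1.20, 8.07e-05), Slc16a1 from -0.41 to 0.56 (0.93, 1.79e-07), Pdp1 from -0.86 to 0.92 (1.74, 2.41e-06) and Egln3 from -1.56 to 0.74 (2.27, 3.84e-07). The level of Yy1 in these cells also differed between stages, at 934 and 941 CPM before and 331 and 324 CPM after. The undifferentiated calls of Pdp1 and Slc16a1 were lost on leaving out single libraries. So were the day 6 calls of Hk2, Pfkm and Eno1, that of Hk2 also in DESeq2.

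Between EPS shCtrl and ES oeCtrl, Pfkp went from -0.44 to 0.67 (change 1.10, 3.2e-05), Tpi1 from -0.45 to 0.23 (0.67, 0.000671) and Pgam1 from 0.63 to -0.12 (-0.77, 5.82e-05). Eno1 went from 0.76 to -0.15 (-0.92, 0.000526), Pkm from 0.52 to -0.34 (-0.87, 0.00143) and Pdk2 from -0.97 to 2.43 (3.39, 7.63e-09). The undifferentiated calls of Pfkp, Tpi1, Pkm and Pdk2 were lost on leaving out single libraries. Pgam1 at day 6 turned its sign under scaling by library totals alone. The 3 sets of changes share libraries and are not independent of each other.

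The difference of EPS from ES turned between the untransduced and the construct lines for Pfkfb2 (0.54 and -0.78, difference 1.32, adjusted p = 0.00102) and for Ldhb (0.93 and -2.59, difference 3.52, adjusted p = 2.32e-08). The call of Pfkfb2 in the construct lines was lost without ES oeCtrl replicate 1.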

How the results depend on the processing

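Over 14 comparisons the members had 321 calls, of which 241 held under every alternative run and 80 were lost under at least 1. Outside these 321, another 52 values that were not called became so under at least 1 alternative. Leaving out each library moved the number of called members from 16 to between 9 and 17 for Yy1 depletion (9 without EPS shCtrl replicate 2), from 14 to between 9 and 12 for overexpression (9 without ES oeYy1 replicate 1), from 18 to between 12 and 17 for EPS shCtrl against ES oeCtrl, and from 20 to between 12 and 17 for the change of the overexpression effect between stages (12 without ES oeYy1 replicate 2). In the other comparisons the count stayed within 1.5 times. Fitting only the libraries compared gave 22 called members for overexpression and 11 for EPS shCtrl against ES oeCtrl. Leaving out EPS shCtrl replicate 2 or 1 turned the sign of Ldha: it was -0.059 or 1.22 in EPS shCtrl against ES oeCtrl, 0.91 or -0.38 in the day 6 change of EPS shCtrl, -0.71 or 0.58 in the change of the depletion effect and 0.56 or -0.73 in the change of the control difference. Scaling by library totals alone moved the all-gene median to -0.15 for the day 6 libraries labelled shYy1 and to 0.17 for day 6 EPS shCtrl against ES oeCtrl; under it Eno1 became -0.12 in the former (adjusted p = 0.00815), and Slc2a3 0.15 and Pgam1 0.026 in the latter. With the replicate block, 19 members were called in EPS against ES, 20 for depletion, 17 for overexpression and 19 for EPS shCtrl against ES oeCtrl, with Ldha lost in the last 2 comparisons (adjusted p = 0.0656 and 0.115). The cause was not tested, except that fewer libraries leave less information on the spread. Isoenzyme shares per gene length were not run. Members under about 10 CPM, such as Pfkfb4 and Pdk2 in some groups, rest on few counts.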

Other observations

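In the Yy1 lines at day 6, of the 21 other HIF target genes 6 were higher and 10 lower in the libraries labelled shYy1, with a median log2 fold change of -0.26 (30.9% and 30.4% of all genes). In ES oeYy1 9 were higher and 2 lower, with a median of 0.11 (20.3% and 21.6% of all genes). Bhlhe40, a transcriptional repressor, was at 163 CPM in the libraries labelled shYy1 and 69.7 CPM in EPS shCtrl (1.36 ± 0.05), against the direction of most of that list. Vegfa was at 48.8 CPM in ES oeYy1 and 24.0 CPM in ES oeCtrl (0.98 ± 0.08), whereas before differentiation it was lower in ES oeYy1 (-2.59 ± 0.33). Pck2, the mitochondrial phosphoenolpyruvate carboxykinase, was at 12.3 CPM in the libraries labelled shYy1 and 45.7 CPM in EPS shCtrl (-1.76 ± 0.10), and at 18 CPM in ES oeYy1 and 11.1 CPM in ES oeCtrl (0.64 ± 0.12). Tigar was higher in the libraries labelled shYy1 (0.78 ± 0.07) and lower in ES oeYy1 (-0.26 ± 0.07).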
